A study of Schmidtea mediterranea with 50 samples.

Results

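The 5 genes *zpuf-1* (SMED30027156), *zpuf-3* (SMED30028142), *zpuf-4* (SMED30018924), *zpuf-5* (SMED30000827) and *zpuf-7* (SMED30006083) were followed through knockdown of *chd4* and of *p53* in the planarian *Schmidtea mediterranea*. They are 5 of the *zpuf* genes that the study named, taken by identifier from 35057 transcripts. All 5 passed the filter on low values that kept 25079 transcripts. The genes were selected on measured values, because the study drew its candidates from transcripts that were lower at days 12 and 15 of *chd4*(RNAi) and at days 12, 15 and 18 of *p53*(RNAi), and then by their in situ pattern. Values of those days are therefore given as a description with no test. Differences between groups were tested on days 3, 6 and 9, whose libraries the choice did not use. The choice does touch 2 parts of the tests. The fit took 1 spread for each transcript from all 50 libraries, and the correlations used all 18 control libraries, those of days 12, 15 and 18 among them.

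Whole worms of the asexual CIW4 strain ate bacteria that expressed double-stranded RNA against *chd4*, *p53* or, as the non-targeting control, *unc22*, all in calf liver paste. Food was given 3 times at intervals of 3 days, on days 0, 3 and 6, and days count from the first feeding. Worms of day 3 were thus sampled before the last feeding. Between day 3 and later days, time and the number of feedings cannot be told apart. The sources do not say whether worms of day 6 were sampled before or after the feeding of that day. Days 6 and 9 may thus also differ in the number of feedings. *chd4*(RNAi) was sampled at days 3, 6, 9, 12 and 15 (15 libraries, since worms died before a later day), *p53*(RNAi) at days 3 to 18 (17 libraries, with 2 left at day 18 after the authors took out an outlier) and the control at days 3 to 18 (18 libraries). Each replicate is a pool of 10 worms, and the 50 libraries form 17 groups, all but that one with 3 replicates. Every group ate RNAi food, and the knockdown acts in the whole animal.

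In planarians all new cells come from neoblasts, the dividing stem cells of the mesenchyme. A class of them called zeta, marked by the zinc finger gene *zfp-1*, gives rise to early progeny that express *prog-1* and then to late progeny that express *AGAT-1*, a glycine amidinotransferase of creatine synthesis. These post-mitotic cells move outward and mature into epidermis. CHD4 is a chromatin remodelling ATPase and p53 a transcription factor, and both are known in planarians to be needed for making these progeny. The name *zpuf* stands for zeta-class protein of unknown function, and the genes are predicted to encode small proteins that begin with a signal peptide, the mark of a protein sent out of the cell or into its membranes. By in situ hybridisation the study placed *zpuf-1*, *zpuf-3* and *zpuf-4* in discrete mesenchymal cells like those of *AGAT-1*, *zpuf-5* in such cells and also in scattered epidermal cells, and *zpuf-7* in such cells and in the gut.

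The cloned fragment of each gene, from which its in situ probe was made, is bounded by the 2 primers of its cloning pair. They are shown because they fix which stretch of each transcript the name and the tissue pattern refer to. Each is printed 5′ to 3′ without the 13-base tail that the primers of the list share, and the capitals mark the part that remains, which is particular to each primer.
zpuf-1 forward: GTTGCAGAGGATTTTGACACCC
zpuf-1 reverse: TGTCACACCTCGAATGCAATTG
zpuf-3 forward: TCAAGAAAAGTACTATAACGTATTCGAG
zpuf-3 reverse: TAGAAACTTAAATGTCGACTTCGTAC
zpuf-4 forward: CAACAAAATGGGTTCCG
zpuf-4 reverse: TCCTTCCTTGATTTCGG
zpuf-5 forward: TTCACTGTGCATTTCCAGCATC
zpuf-5 reverse: ACGCATCTATAAAAGTAGGAGTCAC
zpuf-7 forward: CCAGCGTAGTTACATCACAACC
zpuf-7 reverse: CGTGCGAGAAATTCCTCAGTTG

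The recovered transcript lengths were 579 bases for *zpuf-1*, 685 for *zpuf-3*, 532 for *zpuf-4*, 417 for *zpuf-5* and 617 for *zpuf-7*. All are shorter than the median of 823 bases over the transcripts whose length could be recovered. Read numbers recovered from the RPKM values (a read density scaled to transcript length and library depth) show what each measurement rests on. A library held 79 to 2199 reads of *zpuf-1*, 192 to 6015 of *zpuf-3*, 105 to 2822 of *zpuf-4* and 665 to 3862 of *zpuf-5*. For *zpuf-7* the range was 12 to 352 reads with a median of 130, so its low values carry the most counting error of the 5.

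Depth ran from 13870000 to 26250000 reads and overlapped among the RNAi groups. The targeted transcripts fell in the libraries labelled for them. *chd4* was at 11.8, 10.9 and 12.0 RPKM at day 3 of *chd4*(RNAi) against 41.8, 41.8 and 44.3 in the control, and *p53* at 11.9, 11.6 and 11.03 at day 3 of *p53*(RNAi) against 40.6, 39.2 and 39.4. In *chd4*(RNAi) the mean *p53* transcript was 40.1 RPKM at day 3, 57.5 at day 9 and 32.6 at day 15. The control had 39.7, 39.6 and 32.9 on those days. What this means for the differences between the knockdowns was not tested. The remaining *p53* transcript at day 12 of *p53*(RNAi) was 2.29, 6.63 and 3.38, highest in replicate 2, which was also the highest of its group for 5 of the 5 *zpuf* genes. At day 9 it was 6.05, 8.79 and 4.33, again highest in replicate 2. There replicate 2 was the lowest of its group for *zpuf-1*, *zpuf-3*, *zpuf-4* and *zpuf-5* and the highest for *zpuf-7*. Over all tested transcripts, 3 libraries stood farthest from their nearest replicate, *p53*(RNAi) day 9 replicate 1 (root mean square log2 distance 0.443), control day 12 replicate 1 (0.353) and control day 6 replicate 2 (0.347), against at most 0.319 in the others.

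In control worms the 5 genes spanned a wide range of levels per length. Over the 18 control libraries *zpuf-3* had a mean of 366 RPKM (lowest 292, highest 444), *zpuf-5* 348 (298 to 420.3), *zpuf-4* 226 (185 to 263), *zpuf-1* 155 (125 to 181) and *zpuf-7* 23.2 (16.8 to 30.2). Of the tested transcripts, 98.8% lay below *zpuf-3*, 98.7% below *zpuf-5*, 98.0% below *zpuf-4*, 97.0% below *zpuf-1* and 79.7% below *zpuf-7*. The first 2 did not differ beyond their spread, with *zpuf-3* above *zpuf-5* in 13 of 18 libraries. The ranges of the other neighbours in this order did not overlap.

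Between control days no difference of a member passed the test. No member was called at day 6 against day 3 (0 of 5, where 0.478% of all transcripts were called) or at day 9 against day 3 (0 of 5, background 0.933%), by limma at an adjusted p under 0.05. The day 9 values were between 0.09 (*zpuf-5*) and 0.30 (*zpuf-7*) above day 3 on the log2(RPKM + 0.5) scale, with SE 0.09 and 0.19. The day 9 control libraries of *zpuf-1* and *zpuf-7* lay above every day 3 library. Later days are given without a test. All control libraries of day 12 lay above those of day 3 for every member but *zpuf-5*, which overlapped. The means were 172 RPKM at day 12 against 147 at day 3 for *zpuf-1*, and 411 against 334 for *zpuf-3*. They were 249 against 204 for *zpuf-4* and 27.8 against 19.3 for *zpuf-7*. At day 18 the control mean of *zpuf-1* was 131 against 147 at day 3. The highest day 18 library of *zpuf-1* equalled the lowest of day 3 to 3 digits (137 RPKM). In each of the 5 genes, replicate 1 was the highest of the 3 control libraries of day 3.

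**Figure D1:**
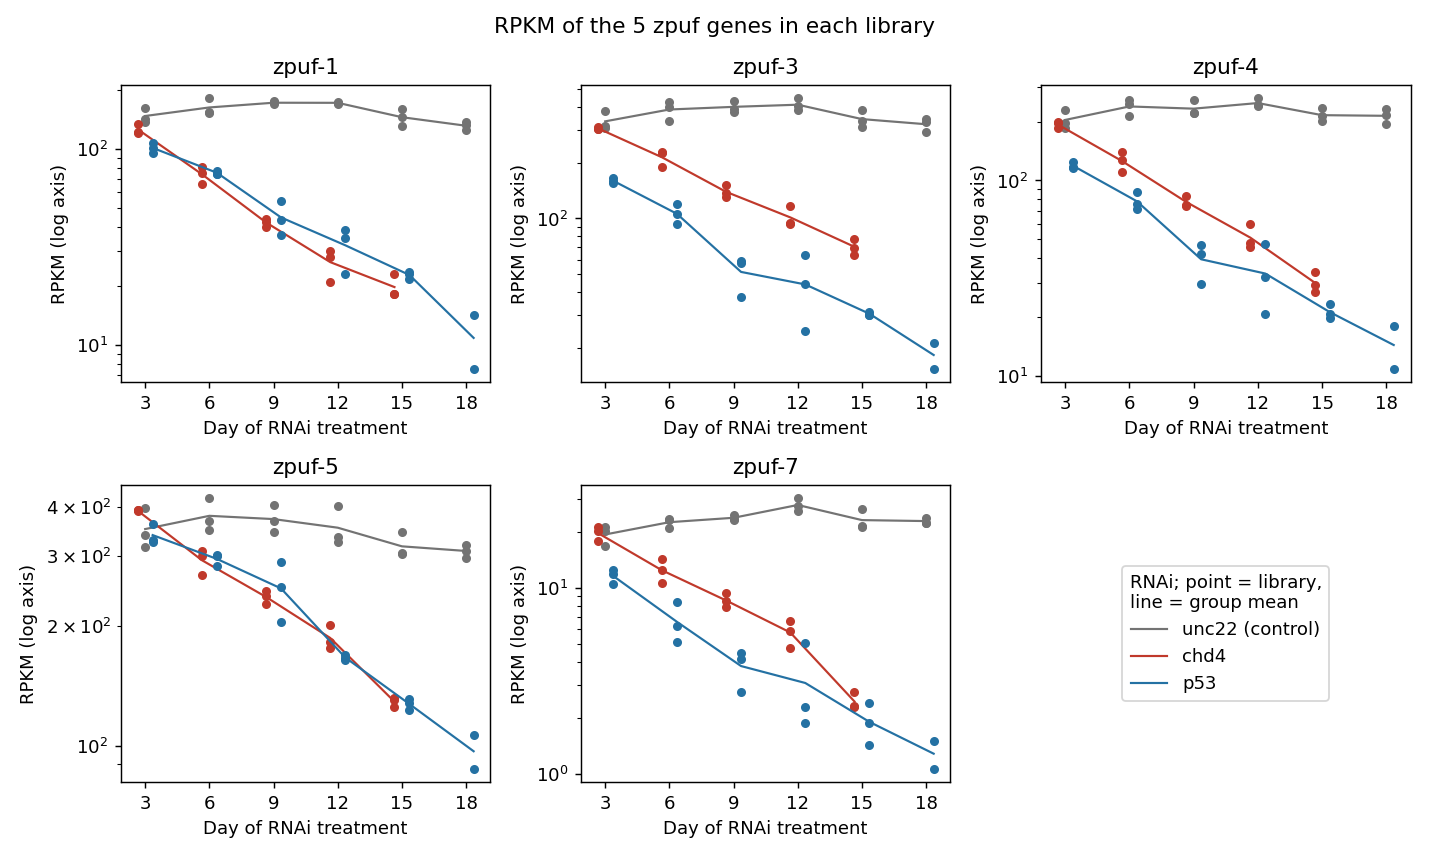
RPKM of each gene on a log axis against the day of RNAi treatment, 1 point for each library and a line through the group means, in grey for the unc22 control, red for chd4(RNAi) and blue for p53(RNAi). The knockdowns lie below the control from day 6 on, with zpuf-3 going from 160.3 RPKM at day 3 of p53(RNAi) to 18.3 at day 18, and blue lies below red for zpuf-3, zpuf-4 and zpuf-7.

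By day 6 all 5 genes were lower in both knockdowns, and at day 9 the difference was greatest for *zpuf-1* in *chd4*(RNAi) and for *zpuf-3* in *p53*(RNAi). At day 3 none of the 5 was called in *chd4*(RNAi) (0 of 5, background 0.159% lower), and 2 of 5 in *p53*(RNAi), *zpuf-3* and *zpuf-4* (background 0.694%). At day 6 the count was 5 of 5 in *chd4*(RNAi) (background 3.84%) and 5 of 5 in *p53*(RNAi) (2.15%), and at day 9 again 5 of 5 in each (12.5% and 11.5%). RNA of whole worms was measured, in which fewer cells of a type and less RNA per cell cannot be told apart. Both knockdowns are compared with the same control libraries of each day.

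*zpuf-3*, of the *AGAT-1*-like mesenchymal cells, had the greatest difference of the 5 at day 3 of *p53*(RNAi). At day 3 it was at 165, 159.9 and 156 RPKM in *p53*(RNAi) against 381, 308 and 314 in the control. The groups lay far apart, at 48.0% of the control mean (log2 -1.05, SE 0.18, limma adjusted p = 3e-04). In *chd4*(RNAi) of that day the values were 303, 313 and 305, which overlapped the control (log2 -0.12, 95% interval -0.47 to 0.24). By day 6 it had 229, 225 and 189 RPKM in *chd4*(RNAi) and 119, 93.4 and 105 in *p53*(RNAi), against 398, 427 and 336. The means were 55.3% and 27.4% of the control. At day 9 the libraries held 151, 130.1 and 137 after *chd4* RNAi, 59.2, 37.8 and 57.4 after *p53* RNAi and 433, 390.3 and 377 in the control. That left 34.8% (log2 -1.52, adjusted p = 6e-09) and 12.9% (log2 -2.97, adjusted p = 1.8e-16), with every *p53*(RNAi) library below every *chd4*(RNAi) library.

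*zpuf-4*, placed by the study in the same discrete mesenchymal cells, followed a like course. Day 3 gave 125, 116 and 117 RPKM in *p53*(RNAi), 196, 186 and 199 in *chd4*(RNAi) and 229.8, 185 and 197 in the control. The *p53*(RNAi) values lay below every control value, while those of *chd4*(RNAi) overlapped them (*p53*(RNAi) log2 -0.77, SE 0.17, limma adjusted p = 0.012). This call was lost when control replicate 1 was left out (adjusted p = 0.13), and likewise for *p53*(RNAi) replicates 2 (0.056) and 3 (0.066). Day 6 values were 140.3, 127 and 110.1 in *chd4*(RNAi) and 87.3, 71.8 and 75.6 in *p53*(RNAi), against 245, 258 and 215. The groups no longer overlapped the control in either knockdown, with means of 52.6% and 32.7% of it. Day 9 values were 83.6, 74.3 and 75.3 after *chd4* RNAi and 46.7, 29.6 and 42.2 after *p53* RNAi, against 258, 221 and 221. They amounted to 33.3% (log2 -1.58) and 16.96% (log2 -2.57) of the control, with adjusted p = 1.2e-09 and 4.5e-15 by limma.

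*zpuf-1* had values that overlapped between the knockdowns from day 6 on. At day 3 it had 123, 121 and 134 RPKM in *chd4*(RNAi) and 107, 101 and 95.002 in *p53*(RNAi), against 162, 137 and 142. All values of both knockdowns lay below the lowest control, but neither difference was called (log2 -0.22, adjusted p = 0.78, and log2 -0.54, adjusted p = 0.093, limma). Fitted on the groups compared alone, the *p53*(RNAi) difference was called (adjusted p = 0.01). On day 6 the values were 75.6, 81.0 and 66.1 in *chd4*(RNAi) and 77.5, 74.6 and 74.5 in *p53*(RNAi), against 153, 181 and 155. The means were at 45.6% and 46.4%. On day 9 they were 44.0, 40.1 and 42.1 after *chd4* RNAi and 54.1, 36.4 and 43.4 after *p53* RNAi, against 175, 169 and 173. This was 24.4% (log2 -2.02, SE 0.15) and 25.9% (log2 -1.95, SE 0.15) of the control mean.

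*zpuf-5*, which the study also saw in scattered epidermal cells, had the smallest differences from the control at days 6 and 9. Its day 3 values were 390.1, 391.6 and 391.6 RPKM in *chd4*(RNAi), 362, 331 and 326 in *p53*(RNAi) and 397, 317 and 340.3 in the control. Each knockdown overlapped the control, while the *chd4*(RNAi) values lay above those of *p53*(RNAi). At day 6 they were 310.3, 300.2 and 270.2 in *chd4*(RNAi) and 302, 284 and 301 in *p53*(RNAi), against 369, 420.3 and 349. The means stood at 77.3% (log2 -0.37, limma adjusted p = 0.0067) and 77.9% (log2 -0.36, adjusted p = 0.015) of the control. Without control day 6 replicate 2, the highest of its group for 5 of 5 members, neither was called (adjusted p = 0.088 and 0.17), nor was *chd4*(RNAi) when only the groups compared were fitted (0.051). Leaving out 1 knockdown library of day 6 also ended the call, with replicate 3 in *chd4*(RNAi) (0.074) and replicate 2 in *p53*(RNAi) (0.095). At day 9 the values were 239, 228 and 246 in *chd4*(RNAi), 291, 206 and 251 in *p53*(RNAi) and 403, 368 and 346 in the control. Both groups lay below the control, at 63.7% and 66.9%. In the epidermal list of 3 other genes, whose summed level was 404 to 427 RPKM in *chd4*(RNAi), 305 to 422 in *p53*(RNAi) and 466 to 531 in the control at day 9, 1 gene was lower in *chd4*(RNAi), 2 were lower and 1 higher in *p53*(RNAi) and none was at 0, and the part of epidermal cells in the *zpuf-5* result was not tested.

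*zpuf-7*, seen in mesenchymal cells and in the gut, was the least abundant. It had 17.7, 20.3 and 21.1 RPKM in *chd4*(RNAi), 12.5, 10.5 and 11.9 in *p53*(RNAi) and 21.1, 16.8 and 20.1 in the control at day 3. The *p53*(RNAi) values lay below all control values without passing the test (log2 -0.71, limma adjusted p = 0.069). It was called with a pseudocount of 2 (adjusted p = 0.012) and when only the groups compared were fitted (0.013). At day 6 they were 14.2, 12.4 and 10.6 in *chd4*(RNAi) and 8.35, 5.14 and 6.22 in *p53*(RNAi), against 23.1, 23.3 and 21.0. The means came to 55.2% and 29.2% of the control. At day 9 they were 8.45, 7.85 and 9.36 after *chd4* RNAi and 4.17, 4.49 and 2.75 after *p53* RNAi, against 23.4, 23.2 and 24.6. This left 36.0% (log2 -1.42) and 16.0% (log2 -2.52). In the list of 22 gut genes, the sum at day 6 was 4411 to 4861 RPKM in *chd4*(RNAi), 4861 to 5443 in *p53*(RNAi) and 5457 to 6056 in the control, with 10 and 2 genes lower, and no gene of it was at 0. At day 9 the sum was 2474 to 2666, 3108 to 4192 and 5598 to 6415, with 22 and 21 lower. The gut's part in the *zpuf-7* result was not tested.

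**Figure D2:**
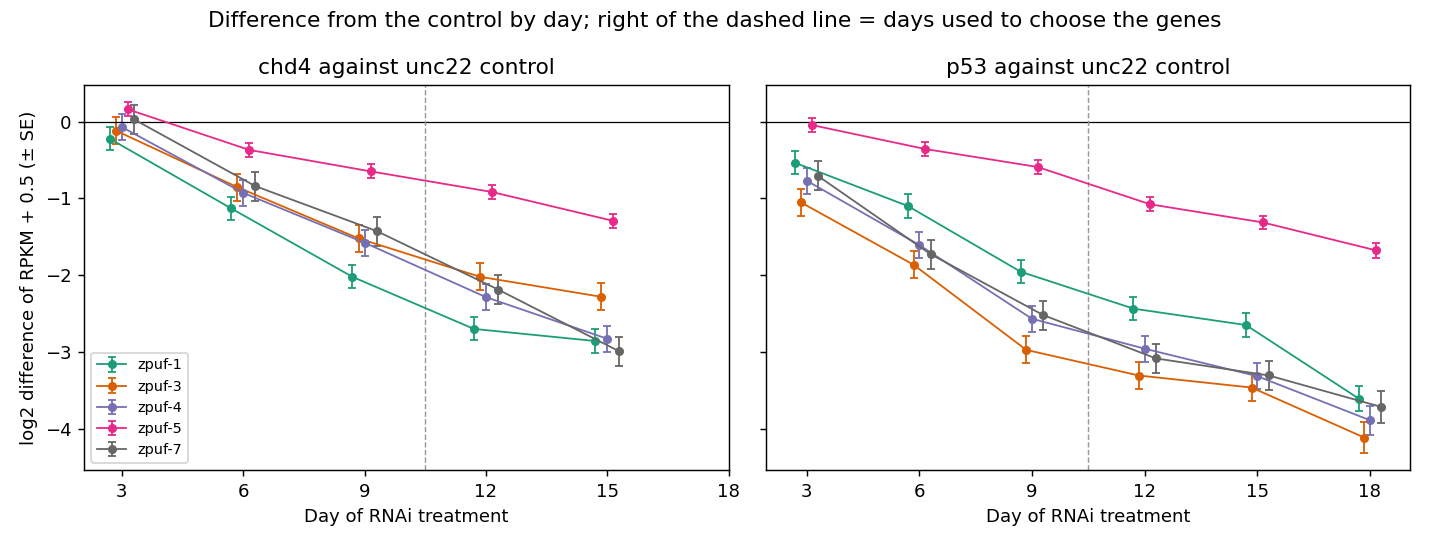
Log2 difference of RPKM + 0.5 from the unc22 control of the same day, ± SE from the fit, for the 5 genes, chd4(RNAi) on the left and p53(RNAi) on the right. Days right of the dashed line entered the choice of the genes; zpuf-5 lies nearest to 0 from day 6 on in both panels.

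The difference from the control grew between day 3 and day 9, which also differ in the number of feedings, for all 5 genes in both knockdowns. As a contrast of its own, the day 9 difference minus the day 3 difference was called lower in 5 of 5 in *chd4*(RNAi) (background 7.28%) and in 5 of 5 in *p53*(RNAi) (5.07%). In *chd4*(RNAi) it ran from -0.81 (*zpuf-5*, SE 0.13) to -1.80 (*zpuf-1*, SE 0.21). In *p53*(RNAi) it ran from -0.54 (*zpuf-5*, limma adjusted p = 0.0032) to -1.92 (*zpuf-3*, adjusted p = 6.2e-07). The *zpuf-5* value in *p53*(RNAi) was not called when only the groups compared were fitted (adjusted p = 0.084).

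The knockdowns were then compared directly, which separated the genes into those with less RNA after *p53* RNAi and those with no called difference. *zpuf-3*, *zpuf-4* and *zpuf-7* were higher in *chd4*(RNAi) than in *p53*(RNAi) at days 3, 6 and 9, 3 of 5 members each time (background in either direction 2.11%, 9.97% and 27.2%). Of the 25079 tested transcripts, 405, 1274 and 3142 were called higher in *chd4*(RNAi) on those days. This direction was not particular to these members. Of the study's 38 other genes with an *AGAT-1* mesenchymal pattern, 16, 14 and 31 were higher in *chd4*(RNAi) and 0, 3 and 4 lower. Their median log2 difference was 0.36, 0.24 and 0.54. *zpuf-3* differed by 0.94 at day 3 (SE 0.18, limma adjusted p = 0.0011), 1.01 at day 6 and 1.45 at day 9 (adjusted p = 2.5e-08). *zpuf-4* differed by 0.70, 0.68 and 0.99, and *zpuf-7* by 0.74, 0.88 and 1.09. At day 3 the *zpuf-4* and *zpuf-7* calls (adjusted p = 0.019 and 0.027) depended on single libraries, since 1 of 5 was called without *chd4*(RNAi) replicate 1 or 3 or any 1 of the *p53*(RNAi) replicates, and 2 without *chd4*(RNAi) replicate 2.

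*zpuf-1* and *zpuf-5* showed no called difference between the knockdowns. For *zpuf-1* the difference was 0.32 at day 3 (95% interval 0.01 to 0.62, limma adjusted p = 0.37), -0.03 at day 6 (-0.33 to 0.28) and -0.07 at day 9 (-0.37 to 0.24). The day 3 value was called when only the groups compared were fitted (adjusted p = 0.032). For *zpuf-5* it was 0.21 (0.02 to 0.39), -0.01 (-0.19 to 0.17) and -0.06 (-0.24 to 0.12). At day 9 these intervals lie below the values of *zpuf-3*, *zpuf-4* and *zpuf-7*, although the difference between genes was not tested. The *p53*(RNAi) library that stood apart at day 9, replicate 1, was the highest of its group for 4 of 5 members, and without it the *zpuf-1* and *zpuf-5* differences were 0.08 and 0.06. At days 12 and 15, described without a test, the difference was 1.29 and 1.18 for *zpuf-3*, 0.67 and 0.49 for *zpuf-4*, 0.90 and 0.31 for *zpuf-7*, -0.26 and -0.21 for *zpuf-1*, and 0.16 and 0.02 for *zpuf-5*, with SE between 0.09 and 0.19.

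**Figure D3:**
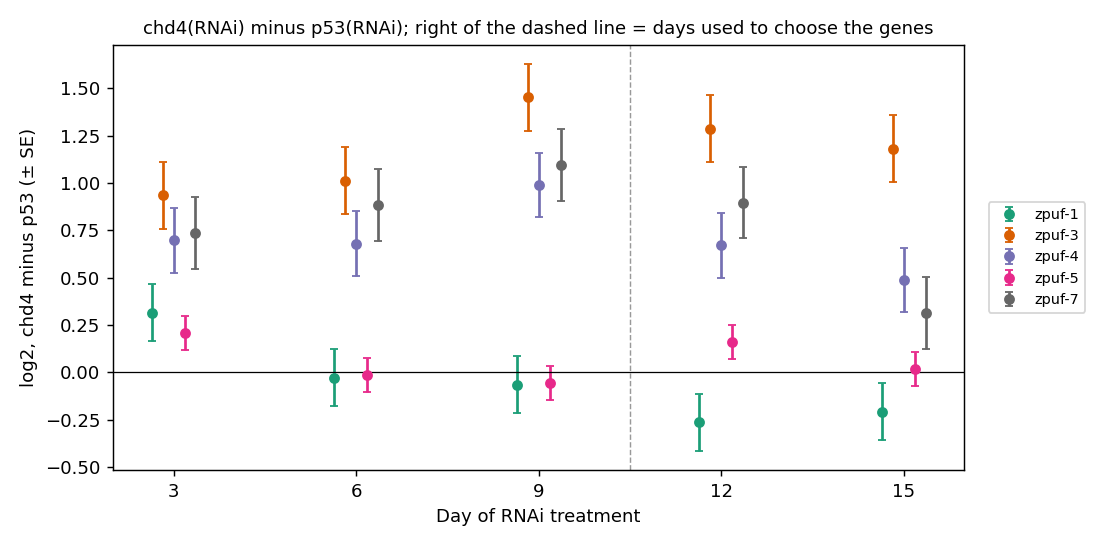
Log2 difference of chd4(RNAi) minus p53(RNAi) by day of treatment, ± SE from the fit, 1 colour for each gene. Points above 0 had more RNA in chd4(RNAi): zpuf-3, zpuf-4 and zpuf-7 stay above 0 on all days shown, while zpuf-1 and zpuf-5 lie near 0 at days 6 and 9.

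Levels relative to *AGAT-1*, the marker of the late progeny, showed which members changed more or less than it within the same library. *AGAT-1* itself went from 256, 252 and 226 RPKM in the control at day 9 to 86.9, 83.2 and 93.6 in *chd4*(RNAi) and 89.7, 75.7 and 78.9 in *p53*(RNAi). The log2 ratio of a member to *AGAT-1* was averaged over days 3, 6 and 9 and compared with the control by an exact two-sided permutation test within days, in 10 tests with Benjamini-Hochberg adjustment. The smallest p that its 8000 arrangements can give is 0.00025.

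Relative to *AGAT-1*, *zpuf-5* rose in both knockdowns on the log2 scale, by 0.59 in *chd4*(RNAi) and 0.70 in *p53*(RNAi), with 9 of 9 libraries of each above every control library of their day (adjusted p = 0.00063 for both, exact permutation test). At day 9 its log2 ratio was 1.39 to 1.45 in *chd4*(RNAi), 1.44 to 1.69 in *p53*(RNAi) and 0.55 to 0.65 in the control. In the same measure *zpuf-1* fell by 0.25 in *chd4*(RNAi) (adjusted p = 0.012, exact) and by 0.16 in *p53*(RNAi) (adjusted p = 0.029, exact), with 6 and 5 of 9 libraries below the controls of their day. The fall was not present at day 3, where the change was 0.02 and 0.06, and reached -0.55 and -0.37 at day 9. With the replicate number as a block, the *p53*(RNAi) call was lost (adjusted p = 0.073, exact). For the other 3 members the ratio was lower in *p53*(RNAi), and its difference between the knockdowns was not tested. In *p53*(RNAi) the mean fall was 0.93 for *zpuf-3* and 0.61 for *zpuf-4* (adjusted p = 0.00063 for both, exact). For each of these, 9 of 9 libraries lay below every control library of their day. For *zpuf-7* the mean fall was 0.62, with 7 of 9 libraries below every control library of their day (adjusted p = 0.002, exact). In *chd4*(RNAi) the mean change was 0.04 for *zpuf-3* (adjusted p = 0.38, exact), 0.01 for *zpuf-4* (0.79) and 0.13 for *zpuf-7* (0.042). These means join unlike days. From day 3 to day 9 of *chd4*(RNAi) the change went from 0.13 to -0.05 for *zpuf-3*, from 0.18 to -0.10 for *zpuf-4* and from 0.28 to 0.05 for *zpuf-7*. In *p53*(RNAi) it went from -0.46 to -1.39 for *zpuf-3*, from -0.17 to -0.98 for *zpuf-4* and from -0.11 to -0.93 for *zpuf-7*. The *zpuf-7* call in *chd4*(RNAi) was lost with a pseudocount of 0.1 (adjusted p = 0.099) and without any 1 of 13 of the 18 libraries, with adjusted p up to 0.084. These were *chd4*(RNAi) day 3 replicates 2 and 3, day 6 replicates 1 and 2 and day 9 replicates 1 and 3, and control day 3 replicates 1, 2 and 3, day 6 replicates 2 and 3 and day 9 replicates 1 and 2.

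**Figure D4:**
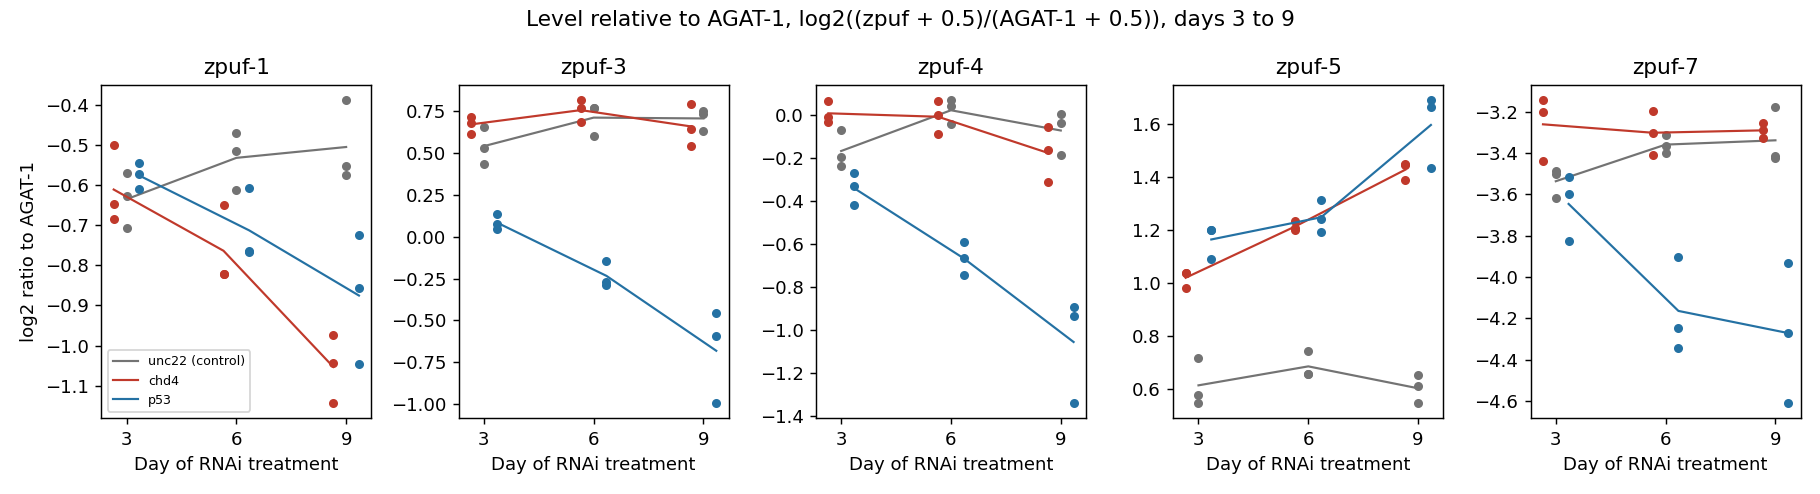
Log2 ratio of each member to AGAT-1 in every library at days 3, 6 and 9, with lines through group means, in grey for the control, red for chd4(RNAi) and blue for p53(RNAi); the vertical scale differs between panels. zpuf-5 lies above the control in both knockdowns, and zpuf-3, zpuf-4 and zpuf-7 lie below it at day 9 of p53(RNAi).

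The later days, on which the genes were chosen, are given as values. Every library of both knockdowns lay below every control library of its day for 5 of 5 members, at day 12 (background for *chd4*(RNAi) 21%, for *p53*(RNAi) 17.5%), at day 15 (24.4% and 23.3%) and at day 18 of *p53*(RNAi) (27.9%). Since the rule used these contrasts, nothing is read from those counts. At day 12 *zpuf-3* had 93.2, 116 and 94.6 RPKM in *chd4*(RNAi) and 24.6, 63.4 and 44.3 in *p53*(RNAi), against 383, 406 and 444. The highest *p53*(RNAi) value is replicate 2, as for the other 4 members. At day 15 *zpuf-3* had 69.6, 63.8 and 77.5 in *chd4*(RNAi) and 30.3, 30.3 and 31.2 in *p53*(RNAi), against 383, 337 and 311, or 20.5% and 8.91% of the control. At day 18 *p53*(RNAi) had 21.3 and 15.4 (n = 2) against 331, 344 and 292, a log2 difference of -4.11 (SE 0.20).

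*zpuf-1* stood at 20.9, 30.1 and 28.1 RPKM in *chd4*(RNAi) and 22.8, 38.5 and 35.2 in *p53*(RNAi) at day 12, against 169.5, 173 and 174. At day 15 these were 18.1, 18.1 and 22.8 in *chd4*(RNAi) and 21.5, 23.6 and 23.0 in *p53*(RNAi), against 159, 145 and 132, and the ranges of the knockdowns overlapped. Day 18 of *p53*(RNAi) gave 14.1 and 7.51 against 137, 125 and 132, 8.24% of the control mean. *zpuf-4* had 45.8, 59.6 and 47.7 in *chd4*(RNAi) and 20.7, 47.3 and 32.2 in *p53*(RNAi), against 242, 242 and 263 at day 12. By day 15 its values were 29.2, 27.0 and 34.1 in *chd4*(RNAi), 20.9, 19.7 and 23.2 in *p53*(RNAi) and 235, 200.4 and 213 in the control, or 13.9% and 9.85%. At day 18 they were 17.9 and 10.9 against 232, 216 and 194.

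*zpuf-5* kept the most RNA. Its day 12 values were 182, 202 and 177 RPKM in *chd4*(RNAi) and 165, 169.5 and 167 in *p53*(RNAi), against 335, 326 and 401. At day 15 it had 130.3, 126 and 132 in *chd4*(RNAi) and 131, 129 and 123 in *p53*(RNAi), against 345, 304 and 305, which is 40.7% and 40.1% of the control mean, where the other 4 members kept 10.6 to 20.5% in *chd4*(RNAi) and 8.27 to 15.6% in *p53*(RNAi). At day 18 of *p53*(RNAi) *zpuf-5* had 106 and 87.7 against 321, 309.8 and 298. *zpuf-7* had 4.77, 6.61 and 5.89 in *chd4*(RNAi) and 2.28, 5.09 and 1.89 in *p53*(RNAi) at day 12, against 25.8, 27.4 and 30.2. It went on to 2.74, 2.30 and 2.32 in *chd4*(RNAi) and 1.88, 1.43 and 2.41 in *p53*(RNAi) at day 15, and to 1.51 and 1.07 at day 18, where the control had 22.4, 22.4 and 23.6. The log2 differences of *zpuf-7* at these levels depend on the pseudocount.

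Of the other *zpuf* genes of the study, *zpuf-2* and *zpuf-6* were set beside the members, and no further one was examined. *zpuf-2* (SMED30028287) had 61.7, 63.1 and 56.5 RPKM in *chd4*(RNAi), 36.2, 35.7 and 25.3 in *p53*(RNAi) and 119, 133 and 154 in the control at day 9 (log2 -1.15 and -2.06, limma adjusted p = 1.6e-09 and 4.6e-16). *zpuf-6* (SMED30030681), a marker of later epidermal progeny, had 386, 382 and 399 in *chd4*(RNAi), 430.5, 323 and 349 in *p53*(RNAi) and 543, 489.9 and 438 in the control. Its differences, -0.33 and -0.42, were nearer to 0 than those of the 5 members, and the nearest of those was *zpuf-5* with -0.65 and -0.59. Among the 38 other genes with an *AGAT-1* mesenchymal pattern, also chosen by the study on these samples, 1 was lower in *chd4*(RNAi) at day 3, 32 at day 6 and 34 at day 9, and 21, 38 and 38 in *p53*(RNAi). Their median log2 difference at day 9 was -1.14 in *chd4*(RNAi) and -1.51 in *p53*(RNAi), where the median of all transcripts was -0.01 and 0.00. The members *zpuf-1*, *zpuf-3*, *zpuf-4* and *zpuf-7* were below these medians in both knockdowns and *zpuf-5* above. Of 24 other candidate genes of the study, 0, 13 and 21 were lower in *chd4*(RNAi) on the 3 days, and 7, 17 and 24 in *p53*(RNAi). Of 6 neoblast-pattern genes, none was lower in *chd4*(RNAi) on these days and 1 was higher at days 6 and 9, and 1 was lower in *p53*(RNAi) at each of them, with 4 higher at day 9.

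Likeness of pattern was measured as Pearson's r of log2(RPKM + 0.5) over the 50 libraries, which share the treatments. Among the members r was highest for *zpuf-4* with *zpuf-7* and for *zpuf-3* with *zpuf-4* (0.986 for both) and lowest for *zpuf-3* with *zpuf-5* (0.888). The transcripts most like *zpuf-1* were *AGAT-1* (SMED30018353, 0.989) and SMED30009513 (0.989), annotated as another glycine amidinotransferase, which may share reads with *AGAT-1*. For *zpuf-3* they were SMED30020794 and SMED30026414 (0.990 for both), and for *zpuf-5* SMED30001567 (0.973) and SMED30035250 (0.970). Leaving the members themselves aside, SMED30005838 and SMED30005740 had the highest r with both *zpuf-4* (0.997 and 0.994) and *zpuf-7* (0.988 and 0.978). SMED30005838 had a control mean of 1997 RPKM, and its level was 6.999 to 9.779 times that of *zpuf-4* in each of the 50 libraries.

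Within the control worms, where no target was removed, deviations of each library from its day's mean were compared between genes. All 10 pairs of members had a positive r, from 0.58 (*zpuf-4* with *zpuf-7*) to 0.89 (*zpuf-3* with *zpuf-4*), over 18 libraries. By an exact permutation test within days, 12 of 15 pairs (10 among the members and 5 with *AGAT-1*) had an adjusted p under 0.05 for Pearson's r, but the count rested on single libraries. It was 3 without control day 6 replicate 2 or day 3 replicate 1, 4 without day 3 replicate 2 or 3, day 6 replicate 3, day 12 replicate 1 or any 1 replicate of day 15, and 7 without day 9 replicate 2 or day 12 replicate 3. Those of *zpuf-3* with *zpuf-4* (r = 0.89, rho = 0.86, adjusted p = 0.0042 and 0.0089, exact), *zpuf-3* with *zpuf-5* (r = 0.87, rho = 0.82, adjusted p = 0.0026 and 0.0082, exact) and *zpuf-4* with *zpuf-5* (r = 0.88, rho = 0.83, adjusted p = 0.00064 for both, exact) were the strongest. Without the 2 libraries farthest from the median on the first gene they had r = 0.83, 0.80 and 0.81. Against all tested transcripts, 99.9%, 99.8% and 99.9% had a lower r with the first gene of the pair. The other pairs of members had r between 0.58 and 0.72 with adjusted p between 0.016 and 0.049 (exact). For these, the share of all tested transcripts with a lower r ran from 92.3% (*zpuf-4* with *zpuf-7*) to 98.7% (*zpuf-1* with *zpuf-5*). By rank, *zpuf-1* with *zpuf-4* and *zpuf-4* with *zpuf-7* did not pass (rho = 0.57 and 0.53, adjusted p = 0.075 for both, exact). Without the 2 farthest libraries none of these pairs was called, with r between 0.40 and 0.66. In that setting r was 0.59 for *zpuf-4* with *zpuf-7* and 0.66 for *zpuf-1* with *zpuf-7*, against 0.58 and 0.68 over all 18 libraries. With *AGAT-1*, r was between 0.48 (*zpuf-7*) and 0.67 (*zpuf-3*). For the *AGAT-1* pairs that share ran from 90.8% (*zpuf-5*) to 95.7% (*zpuf-3*). The labels give no sequencing batch for these libraries.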

How the data were processed

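Poly(A) RNA of pooled whole worms was sequenced by the authors, who mapped reads to *S. mediterranea* transcripts with Bowtie after base calling with CASAVA 1.8.2, and tested with edgeR. The deposited values are RPKM per transcript, normalised by the authors, for 35057 transcripts in 50 libraries. The step that set the library totals is not given in the sources used here. Read numbers and lengths were recovered from the whole-number steps of the RPKM values (92.5% of transcripts, within 0.02 reads), which gave 13870000 to 26250000 reads a library, and served to describe depth. RPKM are not counts, so log2(RPKM + 0.5) was fitted with limma 3.58.1 in R 4.3.3 (empirical Bayes with an intensity trend), with 1 mean for each of the 17 groups. A transcript entered when 2 or more libraries had 1 RPKM or more (25079 did, 9978 were left out), and p-values were adjusted over all of them by Benjamini-Hochberg, with calls at an adjusted p under 0.05. Fold changes on this scale understate the change of low transcripts. The labels give biological replicates of separate pools. Ratios and correlations were tested by exact permutation within days.

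The members, lists and tests were chosen with earlier results of these data known. The genes named besides the members were *zpuf-2*, *zpuf-6*, *AGAT-1* and the targets. For each member the 2 transcripts with the highest r over the 50 libraries, other members left aside, were also named. The gene lists are the study's own in situ pattern groups. Alternatives were other pseudocounts, no filter, median-ratio scaling, only the groups compared, no trend, a replicate block, and leaving out libraries. Leaving out each control library from the correlations, other than day 6 replicate 2, was chosen after seeing the data. The scripts were tested on simulated data.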

Additional observations from a re-analysis of the deposited data

Results flagged for a closer look

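The change from day 3 to day 9 beyond that of the control differed from 0 for each member in both knockdowns (limma, adjusted over all transcripts). The effect of the knockdown was thus not the same at the 2 days, which also differ in the number of feedings. In *chd4*(RNAi) the change was -1.80 for *zpuf-1* (adjusted p = 3.5e-08), -1.40 for *zpuf-3* (6.2e-05), -1.51 for *zpuf-4* (1.2e-05), -0.81 for *zpuf-5* (8.7e-06) and -1.45 for *zpuf-7* (1e-04), on the log2 scale. In *p53*(RNAi) it was -1.42 for *zpuf-1* (8.6e-06), -1.92 for *zpuf-3* (6.2e-07), -1.80 for *zpuf-4* (1.1e-06), -0.54 for *zpuf-5* (0.0032) and -1.81 for *zpuf-7* (6.2e-06).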

How the results depend on the processing

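Counts of members called at days 6 and 9 kept within 1.5 times of their value under each alternative run (4 to 5 of 5 at day 6 and 5 of 5 at day 9 against the control, leaving out 1 library). For *p53*(RNAi) at day 3 the count of 2 became 4 when only the groups compared were fitted, and 1 to 2 leaving out 1 library. For *chd4* minus *p53* at day 3 the count of 3 became 1 to 2 leaving out 1 library. The 12 correlated control pairs became 3 without control day 6 replicate 2 and 4 without the 2 farthest libraries, and ranged from 3 to 13 leaving out 1 library (all but control day 6 replicate 2 chosen after seeing the data). Without *p53*(RNAi) day 9 replicate 1 and control day 6 replicate 2, *chd4* minus *p53* at day 9 turned to 0.0802 for *zpuf-1* and 0.0607 for *zpuf-5*. Without the 2 farthest libraries, r of *zpuf-7* with *AGAT-1* turned to -0.0753. Leaving out 1 library turned the sign of some values near 0. At day 3 the range was -0.138 to 0.0177 for *zpuf-4* and -0.0635 to 0.101 for *zpuf-7* in *chd4*(RNAi), and -0.117 to 0.0463 for *zpuf-5* in *p53*(RNAi). For *chd4* minus *p53* it was -0.0942 to 0.0511 (*zpuf-1*) and -0.0539 to 0.0458 (*zpuf-5*) at day 6, and -0.202 to 0.0802 and -0.189 to 0.0607 at day 9. For the ratio of *zpuf-4* to *AGAT-1* in *chd4*(RNAi) it was -0.00656 to 0.0362. The causes were not tested. At days 12 to 18 the *zpuf-7* differences moved with the pseudocount, to -3.18 (*chd4*(RNAi), day 15), -3.55 and -4.06 (*p53*(RNAi), days 15 and 18) with 0.1, and to -1.95 and -2.49 (*chd4*(RNAi), days 12 and 15) and -2.60, -2.68 and -2.92 (*p53*(RNAi), days 12, 15 and 18) with 2. Median-ratio scaling shifted the median of all transcripts by at most 0.0102.

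Same-numbered libraries were at most weakly correlated in their deviations. Of 27 such pairs, 4 had a correlation over 0.1 (range -0.036 to 0.145). In 18 of 27, however, the own number gave the highest correlation, so replicate numbers may carry some shared structure, which was not tested further. With the replicate number as a block, 2 of 90 results changed their call. These were the ratios to *AGAT-1* of *zpuf-7* in *chd4*(RNAi) (0.13, adjusted p = 0.05, exact) and of *zpuf-1* in *p53*(RNAi) (-0.16, adjusted p = 0.073, exact). Counting error limits *zpuf-7* most, with 12 reads in its lowest library.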
